A study of Mus musculus with 20 samples.

Results

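The maternal oocyte transcripts described here are 40 genes, chosen by symbol, whose mRNAs are stored in the mouse oocyte. They are the zona pellucida genes, secreted oocyte factors, genes of the subcortical maternal complex and stored regulators of RNA, chromatin, meiosis and protein turnover. The deposited count table held 39 of the 40 among its 25208 genes, and all 39 were among the 16603 genes tested. H1foo was found under its current symbol H1f8, and Dppa3l was not analysed here. Expression was measured by RNA sequencing in 20 libraries of mouse preimplantation embryos, made with Smart-seq2, a full-length cDNA method for small inputs. All embryos were cultured from the zygote in KSOM medium. Control embryos, of wild-type (WT) genotype, and P300 siRNA embryos, labelled as P300 knockdown, were collected at 4 stages, namely late 2-cell, 4-cell, and early and late 8-cell. A pair of further late 8-cell groups combined P300 siRNA with I1394G or with NaCr and were labelled as rescues. The labels spell out neither name, taken here to mean a p300 point mutant and sodium crotonate. Each of the 10 groups holds 2 libraries. The labels give no mouse strain, no dose, no number of embryos per library and no control treatment. They do not say that the libraries of a group came from separate animals, so p-values measure only the spread between these samples, which may be technical.

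The oocyte stops transcription before it matures and supports the first divisions from mRNAs and proteins that it has stored. After fertilisation these mRNAs lose their poly(A) tails and are degraded in successive waves, the earlier by maternal factors such as BTG4, which brings the CCR4-NOT deadenylase to them, and the later by factors made once the embryonic genome is active. The stored products include the zona pellucida coat, growth factors that act on the follicle, and the subcortical maternal complex, a protein assembly beneath the oocyte membrane that the embryo needs to pass the first cleavages. p300, encoded by Ep300, is a histone acetyltransferase that can also add crotonyl groups, and the comparisons ask how its knockdown alters transcript levels through these stages.

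Levels are given in CPM (counts scaled to a common library size with TMM factors), as the values of replicates 1 and 2 in that order. A change is a log2 fold change ± SE. Adjusted p-values come from the quasi-likelihood test of edgeR (two-sided, Benjamini-Hochberg over all genes tested), and a call is an adjusted p under 0.05. Total counts ranged from 3.20 to 24.8 M (M, mega), and the shallowest library was late 8-cell P300 siRNA replicate 1, where 3 counts correspond to 0.796 CPM. Ep300 read 83.8 to 86.1 CPM in late 2-cell controls and 22.6 to 29.9 CPM with siRNA, and its range in siRNA libraries also lay below that of the controls at the 4-cell (11.4 to 19.1 against 48.3 to 88.4 CPM) and early 8-cell stages (11.7 to 16.4 against 41.5 to 82.9 CPM). Late 8-cell values were 15.2 to 22.0 CPM in controls, 13.2 to 16.2 CPM in the libraries labelled P300 siRNA, 14.8 to 16.2 CPM with I1394G and 11.6 to 12.6 CPM with NaCr, so that directions at that stage rest on the labels. At an equal depth of 3202332 counts, late 8-cell siRNA libraries held 15920 and 16839 genes with a count, against 14495 and 14419 in controls. The summed level of 11 genes that mark the 2-cell embryo was 46.5 and 28.4 CPM in late 8-cell controls and 259 and 111 CPM with siRNA. The sum of 8 genes of the late 8-cell embryo, all with counts in the controls, was 869 and 1006 CPM in controls and 444 and 380 CPM with siRNA. Markers of granulosa and cumulus cells (14 genes, 9 at 0 in both late 8-cell controls, among them Foxl2, Fshr and Amh) summed to 49.1 and 52.2 CPM in those controls and 34.0 and 52.4 CPM with siRNA, where Fshr and Cyp19a1 were at 0. The part of these differences in the member values below was not tested. In bulk libraries, fewer cells of a type and less RNA per cell cannot be told apart.

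At the late 2-cell stage the members made up 3.82% and 3.64% of all counts in the controls, or summed levels of 32224 and 30829.6 CPM. Compared per transcript length, in the deposited FPKM (fragments scaled to transcript length and library size), the most abundant were Omt2b, an oocyte-specific gene of the Omt2 pair (7463 FPKM, mean of the controls), and Tcl1, an AKT co-activator (6795 FPKM). Btg4, the CCR4-NOT adaptor, followed at 2152 FPKM and Omt2a at 2146 FPKM. Figla, a transcription factor of early oocytes, was lowest at 1.11 FPKM. Tcl1 alone gave 29.9% of the summed member CPM. Omt2a and Omt2b share 37.0% and 35.2% of the 50-base words of their GENCODE transcripts, so the split of reads between them is uncertain.

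In the controls most of the set fell between the late 2-cell and 4-cell stages, and 27 of 39 members then stood under 10% of their late 2-cell level. The late 2-cell samples are numbered in a separate block from all others. Stage and any difference of batch cannot be told apart in changes from that stage. Of 39 members, 33 fell and 1 rose, where 34.2% of all genes fell and 27% rose, and the members' median change was -4.71 against -0.40 over all genes. Tcl1 read 9645 and 9182 CPM at the late 2-cell stage, 14.7 and 74.2 CPM at the 4-cell stage, 25.8 and 12.1 CPM at the early 8-cell stage and 5.29 and 9.71 CPM at the late 8-cell stage. Both late 2-cell libraries lay far above the other 6, and the 4-cell libraries differed widely from each other. Omt2b went from 4652 and 4609 CPM to 144 and 118, then 213 and 48.7, and finally 4.11 and 4.96 CPM. Btg4 went from 2856 and 2718 CPM to 10.4 and 41.6, then 8.17 and 9.96, and finally 1.64 and 1.77 CPM. Each of these had thus fallen steeply by the 4-cell stage, where Omt2b still held 144 and 118 CPM, and was lower still at the late 8-cell stage.

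The summed level of the members stood at 653 and 787 CPM in 4-cell controls. The members that did not pass between the late 2-cell and 4-cell stages were Zp3, which encodes the sperm-binding zona protein, Mos, the kinase that holds the egg in metaphase, Ccnb3, a cyclin of meiosis, Figla, and Nlrp4c, of the NLRP family. From the 4-cell to the early 8-cell stage 0 of 39 members passed in edgeR (12 had an unadjusted p under 0.05, and DESeq2 called 2), where 0.62% of all genes rose and 0.506% fell. The 4-cell controls were unequal, since replicate 2 was higher in 24 of the 36 members with counts in both, at a median log2 ratio of 0.59 against 0.00 over all genes. Among early 8-cell controls replicate 2 was higher in 7 of 36, at a median of -0.68. Without 4-cell control replicate 1 the count of members that fell to the early 8-cell stage was 9, and without early 8-cell control replicate 1 it was 1.

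A further round followed between the early and late 8-cell stages of the controls, where 20 members fell and 4 rose (11.2% and 15% of all genes; median -1.98 against 0.11). Zp3 read 45.2 and 47.4 CPM in late 2-cell controls, 43.2 and 19.5 CPM at the 4-cell stage, 47.6 and 22.1 CPM at the early 8-cell stage and 8.52 and 8.33 CPM at the late 8-cell stage. The last pair lay below all 6 earlier libraries (-2.05 ± 0.45 from early to late 8-cell, adjusted p = 0.0028). Nlrp5, the MATER protein of the subcortical complex, read 132 and 113, 13.8 and 9.16, 12.6 and 7.98 and 1.69 and 1.27 CPM over the 4 stages and fell by 2.78 in the last step (SE 0.37, adjusted p = 6.4e-05). Gdf9, a growth factor that the oocyte secretes to its follicle, fell by 2.86 in that step (SE 0.45, adjusted p = 2.3e-04), and Nlrp14, another oocyte NLRP protein, by 2.26 (SE 0.32, adjusted p = 9.7e-05). Oosp1, a small secreted oocyte protein, read 31.9 and 2.69 CPM in early 8-cell controls and 0.462 and 0.441 CPM in late ones, so that the early libraries were themselves unequal (-5.22 ± 1.06, adjusted p = 0.00168).

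From the late 2-cell to the late 8-cell stage as a whole, 36 members fell and 2 rose in controls (34.2% and 30.5% of all genes; median -7.11 against -0.24). Nobox, an oocyte homeobox factor, had the lowest fitted change and went from 95.5 and 75.2 CPM to 0 and 1 counts, a ratio of 3275 of the earlier to the later level (95% exact counting interval 587 to 129427). Among members that fell, the smallest change was that of Padi6, a peptidylarginine deiminase of the cytoplasmic lattices, from 117 and 144 CPM to 43.5 and 37.8 CPM (-1.68 ± 0.31, adjusted p = 1.1e-04). Figla did not pass, with 0.588 and 0.835 CPM at the start and 0.308 and 0.441 CPM at the end. The median member retained 0.722% of its late 2-cell control level at the late 8-cell stage, and 21 of 39 retained under 1%.

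By role, all 3 zona pellucida genes (Zp1, Zp2 and Zp3) fell over that interval in controls, as did all 4 secreted factors and receptors (Gdf9, Bmp15, Oosp1 and Kit). All 4 stored RNA regulators fell too, and Zar1, an RNA-binding factor needed at the egg-to-embryo transition, went from 19.8 and 19.1 CPM to 2 and 1 counts. Oas1d, a relative of the oligoadenylate synthetases, went from 278 and 286 to 0.975 and 0.552 CPM. All 3 nuclear factors fell. Npm2, a histone chaperone of the egg, went from 264 and 225 to 9.45 and 7.39 CPM, and H1foo, the oocyte linker histone, from 149.7 and 137 to 1.80 and 0.772 CPM. Kpna7, an importin of the egg, went from 195 and 166 CPM to 3 and 0 counts. Of the transcription factors, Nobox and Lhx8, a LIM homeobox gene, fell. In the groups of meiosis and cell cycle genes (Mos, Ccnb3, Rgs2 and Fbxw15), survival and signalling genes (Tcl1 and Bcl2l10) and protein turnover or other stored genes (Uchl1, Rfpl4, Omt2a, Omt2b and E330034G19Rik), every member fell. Fbxw15, an oocyte F-box gene, was the most abundant of the first of these per length (62.3 FPKM) and read 73.3 and 83.9, 11.05 and 7.42, 6.69 and 7.45 and 1.08 and 0.772 CPM over the 4 control stages.

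**Figure D1:**
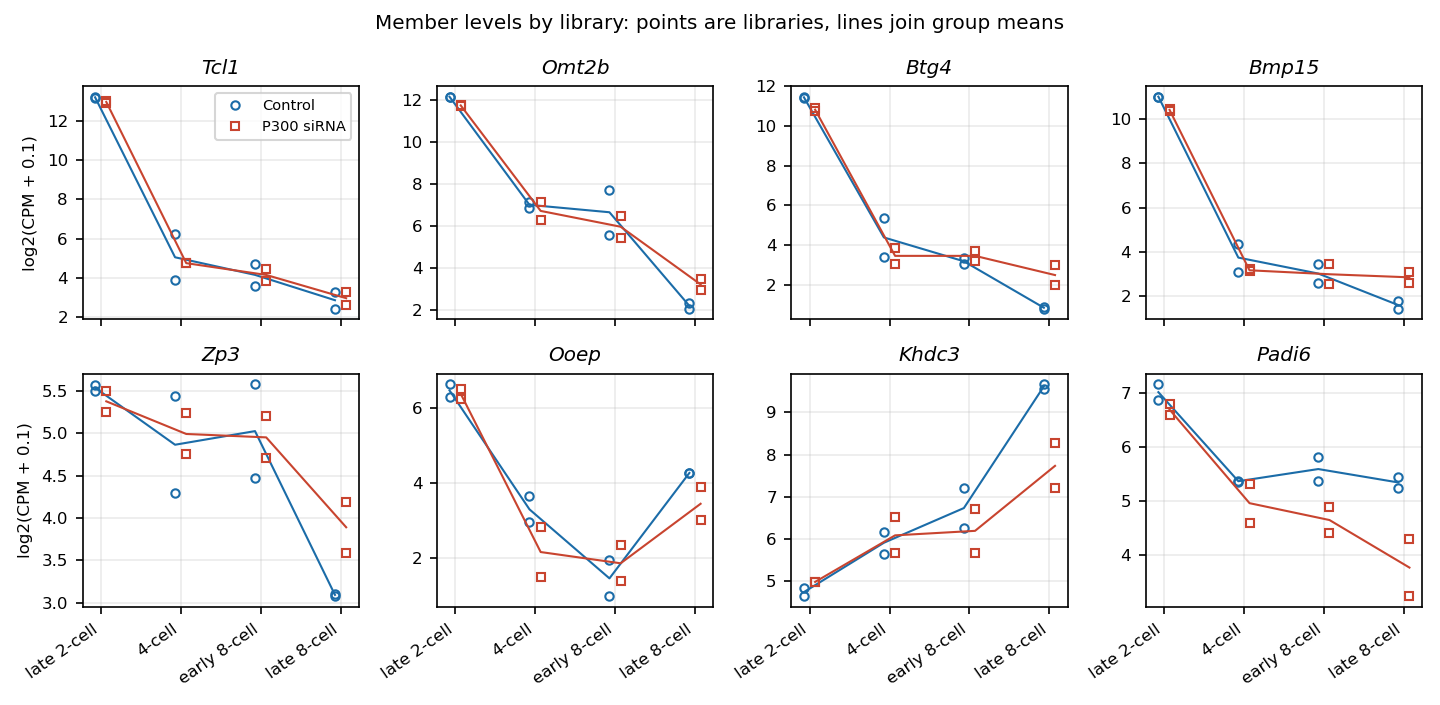
Levels of 8 members by stage, as log2(CPM + 0.1) on separate vertical scales; each point is 1 library (blue circles, control; red squares, P300 siRNA) and lines join group means. Tcl1, Omt2b, Btg4 and Bmp15 dropped between the late 2-cell and 4-cell stages in both arms, while Khdc3 climbed, to 757 and 814 CPM in late 8-cell controls and 147 and 307 CPM with siRNA.

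A small group rose between the early and late 8-cell stages of the controls. Khdc3 (Filia), a KH-domain protein of the subcortical complex, rose in controls, from 28.4 and 24.7 CPM at the late 2-cell stage to 71.8 and 49.9 CPM, 148 and 76.0 CPM and then 757 and 814 CPM, and by the late 8-cell stage it supplied 79.2% of the summed member level. No earlier library reached the late 8-cell pair (2.81 ± 0.39 from early to late 8-cell, adjusted p = 8.1e-05). Ooep, its partner in the complex, read 3.74 and 1.88 CPM in early 8-cell controls and rose to 19.3 and 19.03 CPM (2.77 ± 0.46, adjusted p = 3.2e-04). Nlrp4c rose from 21.2 and 5.92 to 49.0 and 69.8 CPM and Uchl1, a neuronal and germline ubiquitin hydrolase, from 7.78 and 2.06 to 10.7 and 12.4 CPM (adjusted p = 0.00263 and 0.0306). From the late 2-cell to the late 8-cell stage only Khdc3 and Nlrp4c rose. Ooep and Uchl1 stayed below their late 2-cell control levels, which were 98.7 and 78.5 CPM for Ooep and 612 and 455 CPM for Uchl1. In bulk counts, stored RNA and RNA newly made by the embryo cannot be told apart. Khdc3 shares 34.1% of its 50-base words with the gene model Gm20509, and Nlrp4c shares 10.7% with related genes, so their counts are uncertain.

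With P300 siRNA the first clearance was retained. The same 33 members fell from the late 2-cell to the 4-cell stage in both arms (31.5% of all genes fell in siRNA embryos, and 27% rose), at a median of -4.39, and Khdc3 and Nlrp4c rose. From the 4-cell to the early 8-cell stage 0 of 39 passed in edgeR (5 at an unadjusted p under 0.05, and DESeq2 called 0), where 0.271% of all genes rose and 0.223% fell. From the early to the late 8-cell stage 5 members fell and 5 rose (6.17% and 6.79% of all genes; median -0.77 against 0.09). Those that fell (Gdf9, Nlrp14, Npm2, Omt2a and Omt2b) had also fallen in controls, and those that rose were Khdc3, Nlrp4c, Ooep, Cpeb1 and Rgs2. Without siRNA early 8-cell replicate 2 there were 0 rises and 3 falls, and without siRNA late 8-cell replicate 1 there were 2 and 3.

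At the late 2-cell stage siRNA embryos held lower values for most members, and none passed. The test took its spread from all 10 groups together, and no gene at all was called lower here, Ep300 included. The lack of a call therefore does not show equal levels. The summed level was 23324 and 24098 CPM, 75.2% of the controls' mean. Of 39 members, 35 had a negative change (median -0.24 against -0.04 over all genes), 3 had an unadjusted p under 0.05 and 0 passed in edgeR or DESeq2, where 0.00602% of all genes were called higher and 0% lower. Both siRNA libraries lay below both controls for 27 of 39 members (27.5% of all genes) and above them for 3 of 39 (19.7% of all genes). The first share was thus larger, and the second smaller, than over all genes. Tcl1 read 7783 and 8189 CPM with siRNA, below both controls (-0.24 ± 0.46, adjusted p = 1). Rfpl4, a RING-finger protein of the egg that binds ubiquitin-pathway proteins, read 482 and 383 CPM against 840.2 and 809 CPM in controls (-0.93 ± 0.30, adjusted p = 0.986). Rgs2, an inhibitor of G-protein signalling that the egg translates at maturation, stood in the other direction, at 111 and 128 against 82.9 and 76.1 CPM (0.58 ± 0.57, adjusted p = 1). A fit of these 4 libraries alone tested 38 members and called 1 higher and 9 lower, where it called 2.37% of the 13895 genes it tested higher and 1.28% lower.

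At the 4-cell stage 3 members were higher and 3 lower with siRNA, where 7.77% and 7.25% of all genes were. Uchl1 read 6.40 and 7.93 CPM in controls and 45.9 and 59.1 CPM with siRNA (2.86 ± 0.40, adjusted p = 2.3e-04). Nlrp4c read 24.6 and 16.1 against 60.8 and 44.5 CPM (1.38 ± 0.45, adjusted p = 0.0471). For both genes the siRNA libraries lay above both controls. Rgs2 overlapped, at 1.34 and 4.40 CPM in controls and 3.07 and 19.6 CPM with siRNA, where replicate 2 carried the difference (1.94 ± 0.63, adjusted p = 0.0442, but 0.01 without that library). Bcl2l10, an anti-apoptotic BCL2 relative of the egg, read 2.48 and 23.1 CPM in controls and 4.32 and 2.44 CPM with siRNA (-2.06 ± 0.64, adjusted p = 0.0376), and its groups overlapped too. Without control replicate 2, which alone was high, its change was 0.36. Nlrp9b, an NLRP protein of the egg, read 2.89 and 4.81 against 1.53 and 0.731 CPM (-1.88 ± 0.59, adjusted p = 0.038). Rfpl4 read 8.67 and 14.2 against 4.88 and 5.00 CPM (-1.23 ± 0.35, adjusted p = 0.024). For both of the latter the siRNA libraries lay below both controls. Of the 6 calls, that of Uchl1 alone held with each library left out. The members' median change was -0.45 against 0.00 over all genes, and their count ranged from 14 without control replicate 1 to 2 without control replicate 2 and 1 without siRNA replicate 2.

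At the early 8-cell stage 2 members were higher and 1 was lower (8.21% and 8.3% of all genes; median -0.16 against 0.04). Uchl1 read 7.78 and 2.06 CPM in controls and 107 and 55.0 CPM with siRNA (4.05 ± 0.43, adjusted p = 1.4e-05). Nlrp4c read 21.2 and 5.92 against 67.2 and 46.0 CPM (2.07 ± 0.47, adjusted p = 0.00531), or 1.42 once control replicate 2 was left out (adjusted p = 0.0722). Padi6 read 56.5 and 41.1 against 29.5 and 21.1 CPM (-0.94 ± 0.31, adjusted p = 0.0422), and its call was lost when any 1 of the 4 libraries was left out (-1.20 to -0.71). In each of the 3 the groups did not overlap. Without control replicate 2 there were 5 calls, 1 higher and 4 lower.

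By number of members called, the arms differed most at the late 8-cell stage. With siRNA 12 of 39 members were higher and 2 lower, where 13.6% of all genes were higher and 14.3% lower, and the members' median change was 0.98 against 0.06 over all genes. In all, 33 changes were positive, and both siRNA libraries lay above both controls for 21 members (32.8% of all genes) and below them for 3 (33.4%). The median member retained 2.19% of the late 2-cell level of its own arm, against 0.722% in controls, and the siRNA percentage was the larger for 33 of 39. These percentages also depend on the late 2-cell level, which was lower with siRNA for most members. Members under 1% numbered 13 with siRNA and 21 in controls. The summed level of the members ran the other way, at 955 and 1028 CPM in controls and 719 and 743 CPM with siRNA, and Khdc3 supplied 79.2% of it in the controls. Leaving out 1 library at a time gave 7 calls without control replicate 1 (5 higher and 2 lower) and 9 without each of the other 3 (7 higher and 2 lower). With DESeq2 size factors 14 were higher and 2 lower, and the median of all genes moved from 0.06 to 0.20.

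**Figure D2:**
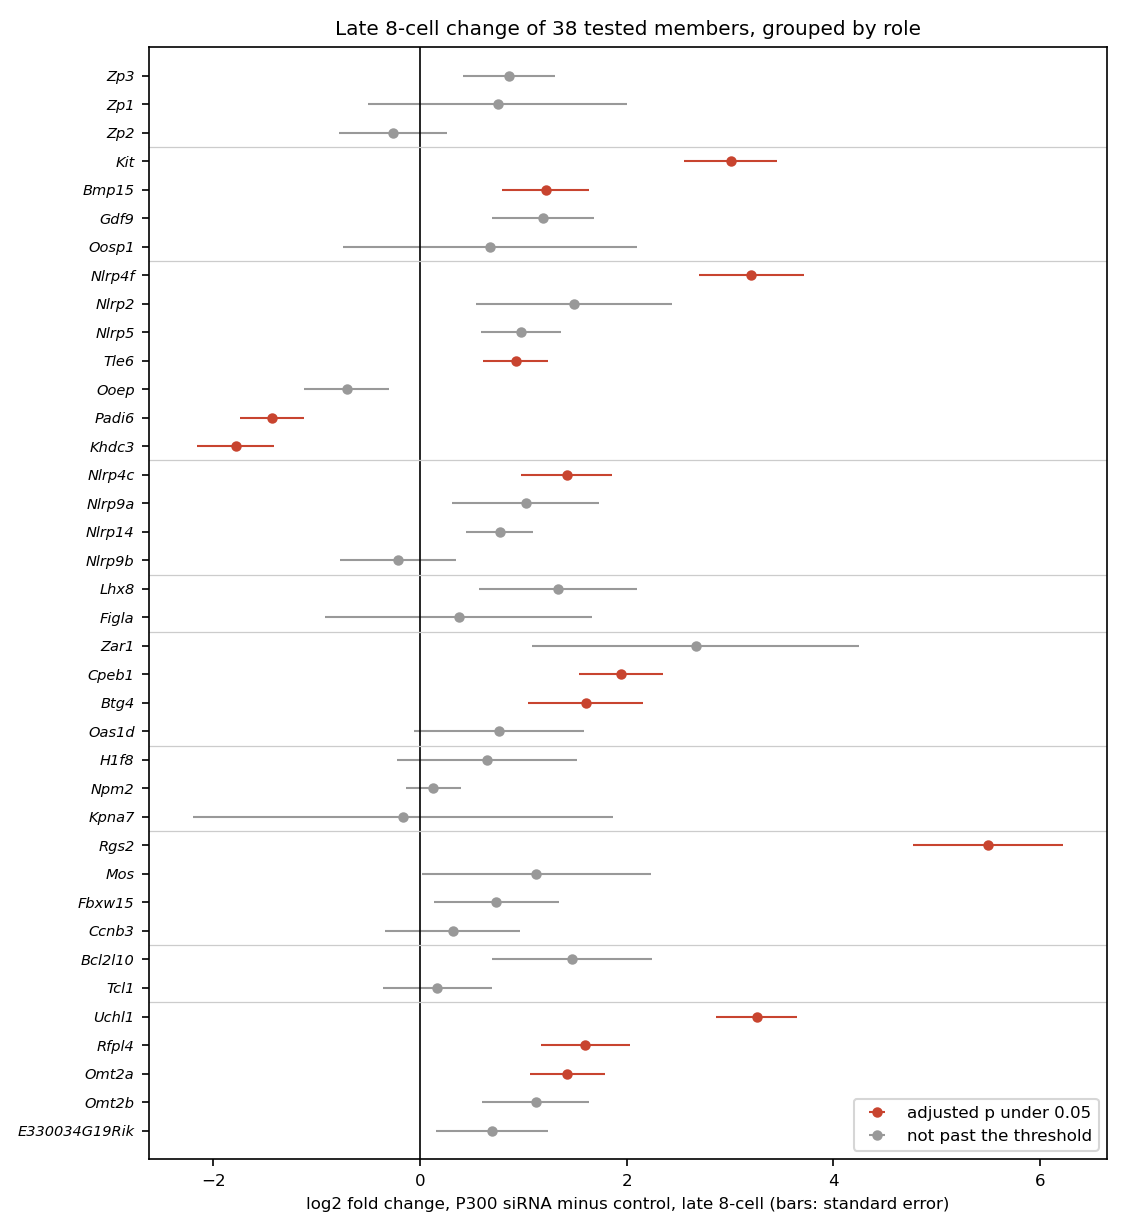
Log2 fold change of P300 siRNA against control at the late 8-cell stage for 38 members, grouped by role; bars are standard errors, and red points passed an adjusted p under 0.05. Nobox, with 1 count in the controls, is left out. Most points lie to the right of 0, and Padi6 and Khdc3, at -1.43 and -1.78, lie farthest to the left.

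None of the 3 zona pellucida genes passed at this stage. Zp3 read 8.52 and 8.33 CPM in controls and 11.9 and 18.1 CPM with siRNA (0.86 ± 0.44, adjusted p = 0.158), while Zp1 and Zp2 stood at 0.75 ± 1.25 and -0.26 ± 0.52. Of the secreted factors and receptors, Kit and Bmp15 were higher. Kit, the receptor for KIT ligand by which the oocyte senses its follicle, read 139.6 and 135 CPM in late 2-cell controls and 133 and 137 CPM with siRNA, 5.27 and 9.76 against 12.4 and 9.26 CPM at the 4-cell stage, and 8.66 and 5.02 against 7.74 and 9.18 CPM at the early 8-cell stage. The arms overlapped at each of these stages. In the late 8-cell libraries Kit stood at 0.770 and 1.21 CPM in controls and 9.82 and 6.74 CPM with siRNA (3.01 ± 0.45, adjusted p = 1.2e-04), without overlap, so that the siRNA libraries held about their early 8-cell level. Bmp15, a growth factor paired with GDF9, read 2.62 and 3.31 against 8.50 and 6.004 CPM (1.22 ± 0.42, adjusted p = 0.0395), again without overlap, and lost its call when any 1 of the 4 libraries was left out (1.01 to 1.51). Gdf9 itself read 1.39 and 1.05 against 2.65 and 2.86 CPM (1.19 ± 0.49, adjusted p = 0.078), and Oosp1 stood at 0.68 ± 1.42 (adjusted p = 0.76).

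The subcortical complex and lattice genes moved in both directions, with 2 of 7 higher and 2 lower. Nlrp4f, an NLRP protein of the complex, read 1089 and 1106 CPM in late 2-cell controls and 625 and 691 CPM with siRNA, and 10.2 and 5.92 against 6.79 and 13.2 CPM at the early 8-cell stage. Late 8-cell controls held 3.03 and 2.54 CPM, and siRNA libraries 40.9 and 13.6 CPM (3.21 ± 0.51, adjusted p = 2.0e-04). Both siRNA libraries lay above both controls, replicate 1 far above replicate 2. Tle6, a corepressor-like subunit, read 4.72 and 5.68 against 9.56 and 10.2 CPM (0.93 ± 0.31, adjusted p = 0.0354), and lost its call when any 1 of the 4 libraries was left out (0.80 to 1.05). Khdc3 read 757 and 814 CPM in controls and 147 and 307 CPM with siRNA (-1.78 ± 0.37, adjusted p = 0.00204). Padi6 read 43.5 and 37.8 against 9.29 and 19.6 CPM (-1.43 ± 0.31, adjusted p = 0.0028). Both were lower in both siRNA libraries, replicate 1 being the lower of the pair. Nlrp5 (0.98 ± 0.39, adjusted p = 0.0693), Nlrp2 (1.49 ± 0.95, adjusted p = 0.257) and Ooep (-0.71 ± 0.42, adjusted p = 0.217) did not pass.

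Among the other NLRP genes, Nlrp4c read 49.0 and 69.8 CPM in controls and 231 and 89.1 CPM with siRNA (1.42 ± 0.44, adjusted p = 0.024). The groups did not overlap, but replicate 1 was far above the other siRNA library, and the change was 0.58 without it (adjusted p = 0.401); the call was also lost without either control (1.18 and 1.68). Nlrp14, at 7.44 and 5.52 against 10.9 and 11.2 CPM, Nlrp9a (1.02 ± 0.71) and Nlrp9b (-0.21 ± 0.56) did not pass (adjusted p = 0.0837, 0.298 and 0.818). Of the transcription factors, Nobox had 0 and 1 counts in controls and 3 and 24 with siRNA, a ratio of 35.9 in summed counts (95% exact counting interval 5.92 to 1471, adjusted p = 0.0475), and its call too was lost without any 1 of the 4 libraries. Lhx8, at 0.154 and 0.165 against 0 and 0.531 CPM, and Figla (0.37 ± 1.29) did not pass (adjusted p = 0.211 and 0.869).

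Of the stored RNA regulators, Cpeb1 and Btg4 were higher. Cpeb1, which binds the cytoplasmic polyadenylation element and sets which stored mRNAs are translated, read 71.7 and 71.8 CPM in late 2-cell controls and 68.1 and 70.5 CPM with siRNA, and 3.15 and 2.96 against 4.96 and 5.39 CPM at the early 8-cell stage. In late 8-cell libraries it stood at 2.62 and 4.91 CPM in controls and 14.9 and 14.2 CPM with siRNA (1.94 ± 0.41, adjusted p = 0.00214), and in siRNA embryos it rose from the early 8-cell stage by 1.49 (SE 0.41, adjusted p = 0.0244). The late siRNA libraries lay above all controls from the 4-cell stage on. Btg4 read 1.64 and 1.77 against 7.96 and 3.84 CPM (1.60 ± 0.56, adjusted p = 0.0393), 0.326% of its late 2-cell siRNA level. Without siRNA replicate 1 its change was 1.16 (adjusted p = 0.184), and the call was also lost without either control. Zar1, at 2 and 1 counts in controls and 0 and 19 with siRNA, and Oas1d (0.76 ± 0.82) did not pass (adjusted p = 0.224 and 0.519).

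None of the 3 nuclear factors passed (H1foo 0.65 ± 0.87, Npm2 0.13 ± 0.27, Kpna7 with 3 and 0 counts in controls and 0 and 2 with siRNA). In the meiosis and cell cycle group the 1 call was Rgs2, which had the highest fitted change among the 38 members with more than 1 count in the late 8-cell controls. Rgs2 read 7.58 and 2.51 CPM in early 8-cell controls and 9.13 and 15.3 CPM with siRNA. Late 8-cell libraries held 1.03 and 0.938 CPM in controls and 41.4 and 48.0 CPM with siRNA (5.50 ± 0.73, adjusted p = 5.0e-05). It fell in controls over this step (-2.34 ± 0.70, adjusted p = 0.0197) and rose with siRNA (1.88 ± 0.60, adjusted p = 0.0464), to 37.5% of its late 2-cell siRNA level against 1.24% in controls. Mos (1.12 ± 1.11), Fbxw15 (0.74 ± 0.60) and Ccnb3 (0.32 ± 0.65) did not pass.

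Neither survival and signalling gene passed, with Tcl1 at 5.29 and 9.71 CPM in controls and 6.11 and 9.72 CPM with siRNA (0.17 ± 0.53) and Bcl2l10 at 1.13 and 0.772 against 1.59 and 3.06 CPM (1.47 ± 0.78, adjusted p = 0.169). Of the protein turnover and other stored genes, 3 of 5 were higher. Uchl1 read 10.7 and 12.4 CPM in controls and 117 and 105 CPM with siRNA (3.26 ± 0.39, adjusted p = 2.1e-05), and was thus higher from the 4-cell stage on. Rfpl4, lower at the 4-cell stage, read 0.616 and 1.38 against 2.12 and 3.39 CPM (1.60 ± 0.43, adjusted p = 0.0104). Omt2a read 2.82 and 3.09 against 7.43 and 8.25 CPM (1.43 ± 0.36, adjusted p = 0.00751). Neither gene's groups overlapped. Rfpl4 lost its call without control replicate 1 or siRNA replicate 2 (1.12 and 1.09), and so did Omt2a (1.36 and 1.32). Omt2b (1.12 ± 0.52, adjusted p = 0.113) and E330034G19Rik (0.70 ± 0.54), an oocyte-expressed gene model, did not pass. Of the 14 members called at this stage, Rgs2, Uchl1, Kit, Nlrp4f, Cpeb1 and Khdc3 were called under each of the 10 alternatives run, 4 of them with 1 library left out.

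**Figure D3:**
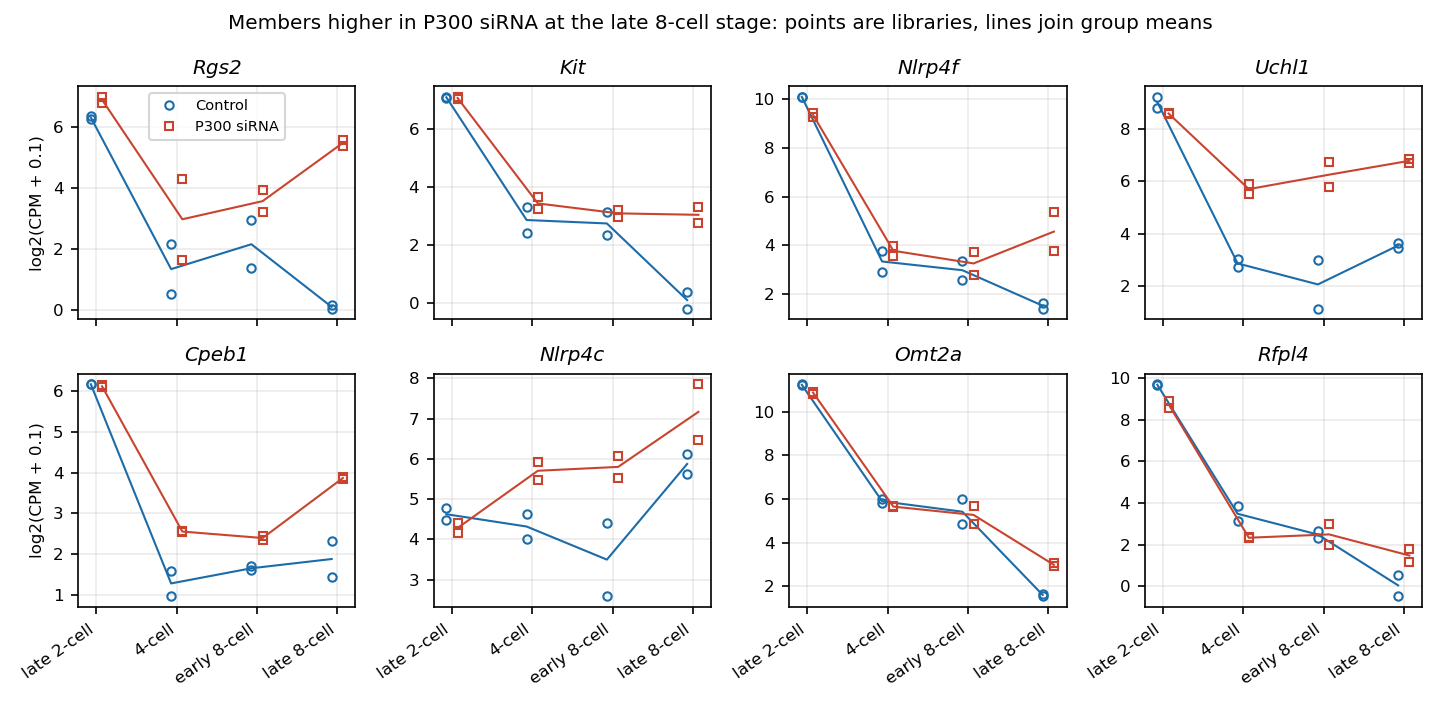
Levels by stage of 8 members that were higher in late 8-cell P300 siRNA embryos, as log2(CPM + 0.1) on separate vertical scales; each point is 1 library and lines join group means. Rgs2 and Cpeb1 turn upward in the siRNA arm, Kit reads about the same there at the 3 later stages while it falls in controls, and Uchl1 parts from the controls already at the 4-cell stage.

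Whether the stage change itself differed between the arms was tested as an interaction. From the late 2-cell to the late 8-cell stage the change was more positive with siRNA for 9 members and more negative for 1 (5.38% and 6.69% of all genes; median 1.18 against 0.13). The 9 were Rgs2, Nlrp4f, Uchl1, Kit, Rfpl4, Btg4, Cpeb1, Bmp15 and Omt2a, and the 1 was Khdc3. Rgs2 fell by 6.32 in controls and fell by 1.41 with siRNA, a difference of 4.91 ± 0.90 (adjusted p = 0.00235). Uchl1 fell by 5.53 in controls and fell by 1.82 with siRNA (difference 3.71 ± 0.52, adjusted p = 4.2e-04). Kit fell by 7.11 in controls and fell by 4.07 with siRNA (difference 3.03 ± 0.57, adjusted p = 0.00281). Khdc3 rose by 4.88 in controls and 2.86 with siRNA (difference -2.02 ± 0.53, adjusted p = 0.0187). The same 36 members fell over this interval in both arms (26.3% of all genes fell and 27.8% rose with siRNA, and 2 members rose). All 9 therefore fell in siRNA embryos too, to a smaller extent. The late 2-cell levels, where no member passed between the arms, enter these differences as well. Rfpl4 started at 482 and 383 CPM with siRNA and at 840.2 and 809 CPM in controls. Its difference was 2.53 here and 1.60 at the late 8-cell stage alone. For Rgs2, which started higher with siRNA, these values were 4.91 and 5.50. The calls of Rgs2, Nlrp4f, Uchl1 and Kit held with each library left out, and the count then ranged from 5 without siRNA late 2-cell replicate 2 to 9.

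From the early to the late 8-cell stage 6 members had a more positive change with siRNA and 0 a more negative one (3.01% and 3.62% of all genes; median 1.30 against -0.04). They were Rgs2, Nlrp4f, Kit, Nlrp5, Omt2a and Tle6, while DESeq2 called 10, all of them more positive. Nlrp5 went from 12.6 and 7.98 to 1.69 and 1.27 CPM in controls and from 4.44 and 5.62 to 2.12 and 3.35 CPM with siRNA (difference 2.01 ± 0.52, adjusted p = 0.0298). Its early siRNA libraries lay below the early controls and its late ones above the late controls. Omt2a fell in both arms, from 64.0 and 28.6 CPM in controls and 28.6 and 52.1 CPM with siRNA (difference 1.63 ± 0.47, adjusted p = 0.0475), a difference of 0.93 without early control replicate 1 (adjusted p = 0.188). Tle6 (10.8 and 7.09 CPM in early controls and 6.79 and 4.93 CPM with siRNA) differed by 1.53 ± 0.45 (adjusted p = 0.0475). This count was 3 without early control replicate 1 (2 positive), 2 without siRNA early replicate 1, 0 without late control replicate 1 and 1 without late control replicate 2.

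**Figure D4:**
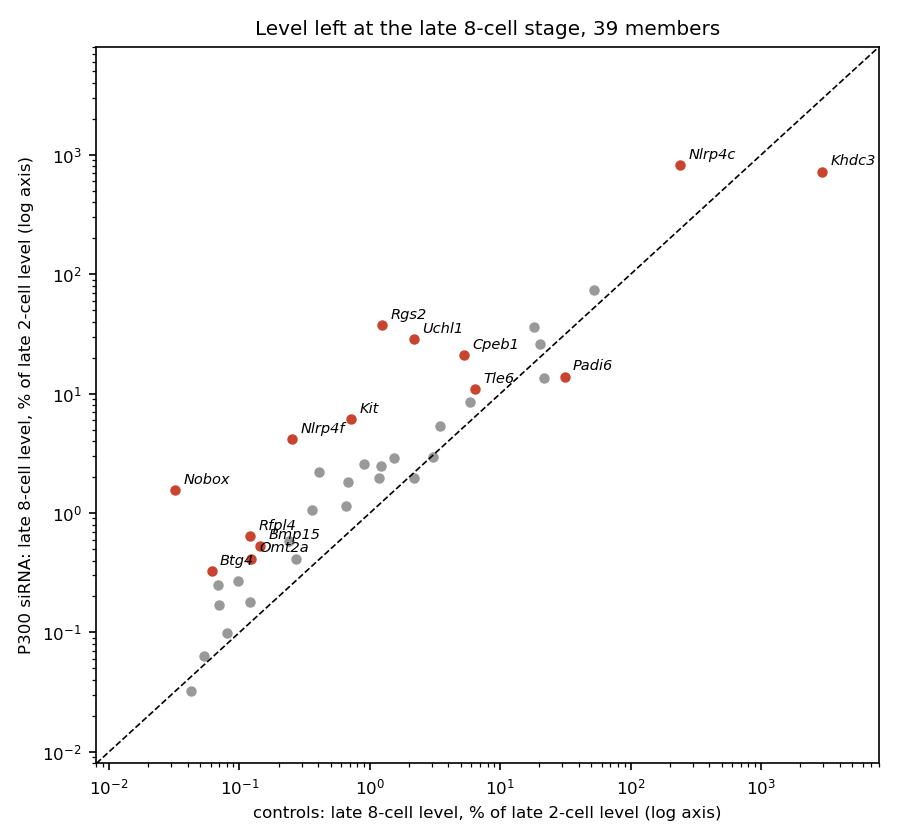
Late 8-cell level of 39 members as a percentage of the late 2-cell level of the same arm, controls on the horizontal and P300 siRNA on the vertical axis, both logarithmic; each point is 1 member from group means of 2 libraries, red points passed the late 8-cell test, and the dashed line marks equal percentages. The siRNA percentage was the larger for 33 members, and Khdc3 and Padi6 lie below the line.

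The sequences upstream of the start show how unlike these genes are, so those of Rgs2 and Kit, 2 of the members called under each alternative, are printed beside those of Btg4 and Omt2a, which are of the kind that most members have. Each is the 250 bases before the RefSeq transcription start in GRCm38.p6, 5′ to 3′ on the strand of the gene, with CpG dinucleotides in capitals. Rgs2 lies at chr1:144004150-144004399, minus strand, Kit at chr5:75574737-75574986, plus strand, Btg4 at chr9:51115751-51116000, plus strand, and Omt2a at chr9:78314049-78314298, minus strand.
Rgs2: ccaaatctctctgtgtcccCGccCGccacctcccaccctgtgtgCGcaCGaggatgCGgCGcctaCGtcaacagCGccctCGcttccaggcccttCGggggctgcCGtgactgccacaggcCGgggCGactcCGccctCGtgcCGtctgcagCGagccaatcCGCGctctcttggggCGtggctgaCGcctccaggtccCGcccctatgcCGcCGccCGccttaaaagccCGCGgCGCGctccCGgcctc
Kit: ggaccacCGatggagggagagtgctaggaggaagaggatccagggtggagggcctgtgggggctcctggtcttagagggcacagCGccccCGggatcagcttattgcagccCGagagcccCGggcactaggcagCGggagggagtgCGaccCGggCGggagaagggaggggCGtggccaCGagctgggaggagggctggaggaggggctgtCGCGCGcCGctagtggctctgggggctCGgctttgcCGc
Btg4: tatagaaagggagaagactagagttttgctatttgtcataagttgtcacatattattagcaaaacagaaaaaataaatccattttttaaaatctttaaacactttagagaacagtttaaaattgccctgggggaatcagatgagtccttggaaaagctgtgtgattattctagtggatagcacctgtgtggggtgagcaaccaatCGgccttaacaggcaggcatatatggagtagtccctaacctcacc
Omt2a: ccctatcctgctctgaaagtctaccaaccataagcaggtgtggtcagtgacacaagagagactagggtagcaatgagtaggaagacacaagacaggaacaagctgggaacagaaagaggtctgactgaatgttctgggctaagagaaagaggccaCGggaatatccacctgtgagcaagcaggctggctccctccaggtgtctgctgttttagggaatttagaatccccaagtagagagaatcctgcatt
The Rgs2 window holds 30 CpG and that of Kit 17, against 1 each for Btg4 and Omt2a. The other members called under each alternative held 25 (Cpeb1), 7 (Uchl1), 2 (Nlrp4f) and 0 CpG (Khdc3), so the printed pairs do not stand for all of them.

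RefSeq gave such a window for 31 of the 39 members. Their median was 4 CpG, against 14 over 13036 tested genes with a window, and 61.3% of members held at most 5, against 21.8% of tested genes. Of the members higher with siRNA at the late 8-cell stage, Cpeb1 held 25 CpG, Tle6 17, Nobox 11, Uchl1 and Nlrp4c 7 each, and Nlrp4f, Bmp15 and Rfpl4 2 each, so that both kinds of window were found among them. The E-box CANNTG, the letters that FIGLA and other basic helix-loop-helix factors bind, was in 83.9% of member windows, 59.5% of those of tested genes and 66.2% of all 32851 promoter windows, all read on both strands. TAATTG, a NOBOX motif, was in 4 of 31 member windows (12.9%) against 4.79% of tested genes and 7.17% of all windows. TGATTG, an LHX8 motif, was in 22.6%, 14.3% and 12.7%. The narrower E-box CACGTG was in 6.45%, 8.07% and 6.02%, thus less often in members than in tested genes. The TATA motif TATAAA was in 16.1%, 7.70% and 12.4%. Matches of 1 motif may overlap those of another, and they are matches of letters, not binding sites.

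Of the 12 members that were higher with siRNA at the late 8-cell stage, 6 were lower than siRNA alone with I1394G and 7 with NaCr. These comparisons share the siRNA libraries with the one above, so their directions are not independent of it. The matching share among all genes higher with siRNA was not determined. The shares of all genes given below are therefore no background for the 6 and 7 of 12. With I1394G 8 members were lower and 2 higher than with siRNA alone (4.58% and 6.19% of all genes; median -0.96 against -0.07). With NaCr 10 were lower and 2 higher (6.57% and 8.77%; median -1.02 against -0.13). Lower in both were Rgs2, Kit, Bmp15, Cpeb1, Omt2a, Rfpl4 and Nlrp14, and higher in both were Khdc3 and Padi6. Rgs2 read 3.83 and 2.29 CPM with I1394G (-3.87 ± 0.65 against siRNA, adjusted p = 0.00163) and 2.18 and 2.11 CPM with NaCr (-4.38 ± 0.69, adjusted p = 5.9e-04). All 4 values lay below both siRNA libraries and above both controls. Kit read 2.19 and 0.924 CPM with I1394G (-2.37 ± 0.43, adjusted p = 0.00258) and 0.858 and 1.37 CPM with NaCr (-2.90 ± 0.47, adjusted p = 7.0e-04), within or near the range of the controls. Cpeb1 read 5.41 and 6.47 CPM with I1394G and 5.48 and 1.74 CPM with NaCr (-1.28 ± 0.40 and -1.95 ± 0.42, adjusted p = 0.046 and 0.00426).

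Bmp15 read 2.19 and 1.06 CPM with I1394G and 2.57 and 1.74 CPM with NaCr (-2.09 ± 0.44 and -1.62 ± 0.46 against siRNA, adjusted p = 0.00636 and 0.0223). Omt2a read 2.30 and 3.83 CPM and 3.499 and 2.49 CPM, and Rfpl4 1.12 and 0.880 CPM and 1.39 and 0.622 CPM, in the same order. Khdc3 read 851 and 925 CPM with I1394G (1.96 ± 0.38 against siRNA, adjusted p = 0.00368) and 1044 and 1111 CPM with NaCr (2.24 ± 0.38, adjusted p = 8.7e-04). All 4 Khdc3 values lay above both controls. Padi6, at 31.3 and 29.2 CPM and 30.8 and 31.1 CPM, lay between the siRNA and control libraries (1.01 ± 0.31 and 1.04 ± 0.31 against siRNA, adjusted p = 0.0454 and 0.0318). Nlrp2, an NLRP protein of the egg and early embryo, was also lower with I1394G, on 1 and 1 counts against 2 and 21 with siRNA (adjusted p = 0.0478). With NaCr, Btg4, Nlrp5 and Lhx8 were lower as well (adjusted p = 0.0369, 0.00836 and 0.0201), Lhx8 without a count and at least 3.55-fold lower, a bound set at 3 counts over the group. Whether the rescue groups differ from each other was not tested.

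Of the members higher with siRNA, Nlrp4f, Uchl1, Nlrp4c, Tle6 and Nobox were not called lower than siRNA in either rescue group. Nobox had 29 and 1 counts with I1394G and 9 and 0 with NaCr, against 3 and 24 with siRNA, so that its libraries were unequal in each of these groups. Uchl1 read 64.2 and 57.6 CPM with I1394G and 45.1 and 60.9 CPM with NaCr, above both controls (2.40 ± 0.38 and 2.19 ± 0.38 against control, adjusted p = 0.0021 and 0.00616). Nlrp4f read 17.8 and 10.5 CPM and 13.8 and 6.22 CPM (2.34 ± 0.49 against control with I1394G, adjusted p = 0.0136). Tle6 read 10.7 and 12.5 CPM and 8.12 and 11.6 CPM (1.16 ± 0.31 with I1394G, adjusted p = 0.0469). Nlrp4c read 172 and 182 CPM and 177 and 171 CPM, above both controls, and did not pass against them (adjusted p = 0.0621 and 0.0927). Against controls, then, 3 members were higher with I1394G (1.99% of all genes, and 1.18% lower) and 1 with NaCr (1.07% and 0.5%), with no other call in edgeR, while DESeq2 called 4 in each, all higher. In these groups the 2-cell marker sum was 148 and 89.2 CPM with I1394G and 35.1 and 197 CPM with NaCr, and the granulosa and cumulus sum ranged from 78.1 to 105 CPM over the 4 libraries; their part in the values was not tested. Without late 8-cell control replicate 1 neither group had a member called against control, and without I1394G replicate 2 and NaCr replicate 2 there were 3 calls each against siRNA (1 higher and 2 lower).

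**Figure D5:**
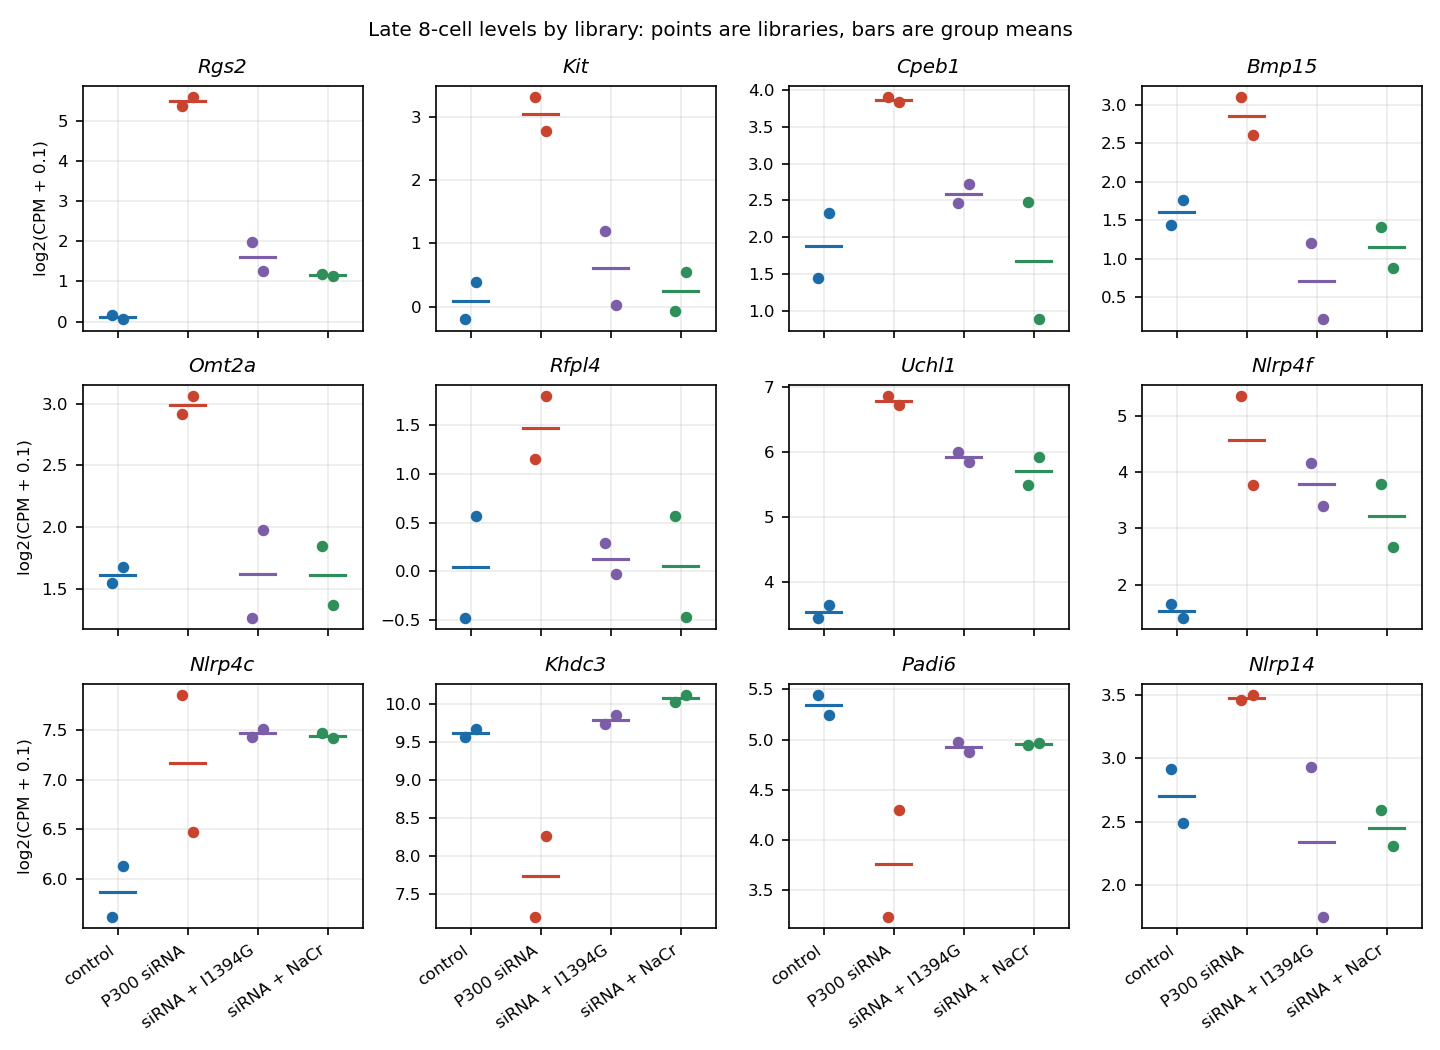
Late 8-cell levels of 12 members in the 4 groups, as log2(CPM + 0.1) on separate vertical scales; each point is 1 library and each bar a group mean. Rgs2, Kit and Omt2a are high only in the siRNA group among these 4, while Uchl1 and Nlrp4f stay above the controls in both rescue groups.

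The machinery that removes such mRNAs was read from a list of 57 deadenylation, decay and poly(A) genes. At the late 8-cell stage 7 of them were higher and 4 lower with siRNA (median 0.08), where 13.6% and 14.3% of all genes were. The 3 higher genes with the smallest adjusted p were Btg2, Tob1 and Tob2, antiproliferative proteins of the BTG/TOB family that bind CCR4-NOT, as BTG4 does. Btg2 read 22.9 and 28.7 CPM in controls and 214 and 265 CPM with siRNA (3.21 ± 0.35, adjusted p = 8.9e-06). Tob1 read 10.5 and 10.5 against 36.1 and 39.9 CPM (1.86 ± 0.26, adjusted p = 8.5e-05), and Tob2 stood at 1.99 ± 0.35 (adjusted p = 5.4e-04). Lower were Pabpc4, a poly(A)-binding protein, at 328 and 270.2 against 61.1 and 110.4 CPM (-1.79 ± 0.27, adjusted p = 1.2e-04), the deadenylase subunit Pan2 (-1.71 ± 0.37, adjusted p = 0.00284) and the nuclear poly(A) polymerase Papola (-0.76 ± 0.20, adjusted p = 0.00806). For each of Btg2, Tob1 and Pabpc4 the groups did not overlap.

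A separate list of 40 other maternal transcripts, none of them members, was read the same way. This list was chosen with earlier results of these data known and was read in the same libraries, so it is not an independent test. In controls 35 of the 40 fell and 3 rose from the late 2-cell to the late 8-cell stage (34.2% and 30.5% of all genes; median -6.36 against -0.24). In late 8-cell embryos 9 were higher and 3 lower with siRNA (13.6% and 14.3% of all genes; median 1.21 against 0.06). Their stage change differed between the arms, over the same interval, for 7 in the positive and 2 in the negative direction (5.38% and 6.69% of all genes; median 1.39 against 0.13). Against siRNA alone 4 of the 40 (10%) were lower and 2 (5%) higher with I1394G, where 4.58% and 6.19% of all genes were, and 4 were lower and 4 higher with NaCr (6.57% and 8.77% of all genes).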

How the data were processed

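Raw read counts per gene were deposited by the authors for 20 libraries, without normalisation. FPKM values were deposited by the authors too, and were used for levels per length and as an alternative. Build mm9, Cufflinks 2.2, HISAT2 2.2.1, cutadapt 4.1 and bcl2fastq 2.20.0.422 were used per the submitters' processing notes, in roles that the notes do not give. Strand use in counting is not given in the sources used here.

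Differences in counts were fitted with edgeR 4.0.16 (R 4.3.3): default low-count filter, TMM scaling, 1 coefficient per group over all 20 libraries (10 residual and 7.98 prior degrees of freedom), quasi-likelihood F test, two-sided, Benjamini-Hochberg adjustment over 16603 genes, call under 0.05. The SE is the absolute log2 fold change over the square root of F. A 2 against 2 permutation test cannot go below 0.333. Group percentages use mean CPM. Intervals and bounds cover counting error only, since no molecular identifiers are stated. In simulated late 8-cell data (14880 genes) 63% of 4-fold and 11% of 2-fold changes were recovered, with 5 false calls. The changed genes were drawn only from those with a mean above 5 CPM over the 2 groups. Many members read less in late 8-cell controls, and recovery at such levels was not measured. Whether recovery and false calls carry over to the late 8-cell libraries, where 13.6% of genes were called higher and 14.3% lower, was not tested. A gene without a call may therefore have changed.

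The members and lists were chosen with earlier results of these data known. Every member is named. Library values follow a rule: the 3 most abundant per length, those called between siRNA and control or in an interaction, the extreme falls in controls and the most abundant of each role. Those of Figla, Gdf9, H1foo, Kpna7, Lhx8, Nlrp2, Oas1d, Ooep and Zar1 lie outside it and were chosen after they were seen. Decay genes are named up to 3 in each direction. Alternatives were DESeq2 size factors, DESeq2 1.42.0, no filter, limma 3.58.1 on log2(FPKM + 1), a replicate block, only the libraries compared and each library left out. In 2 of 16 comparisons the replicate differences correlated above 0.1 (range -0.0364 to 0.418). The highest value was that of the siRNA step from the 4-cell to the early 8-cell stage. The main fit held no replicate block, but low correlations cannot show that libraries of equal number were unpaired. The FPKM column of early 8-cell control replicate 2 did not match its counts (r = 0.314 over deviations from the gene mean, 7134 genes, against 0.980 or more elsewhere); counts were used there. Of the members, 11 share over 5% of their 50-base words with other genes and are uncertain.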

Additional observations from a re-analysis of the deposited data

Results flagged for a closer look

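For 10 members the change from the late 2-cell to the late 8-cell stage differed between siRNA and control embryos, by the interaction test in edgeR. The difference in log2 change, siRNA minus control, was 4.91 for Rgs2, 3.95 for Nlrp4f, 3.71 for Uchl1, 3.03 for Kit, 2.53 for Rfpl4, 2.22 for Btg4, 1.995 for Cpeb1, 1.81 for Bmp15 and 1.78 for Omt2a. It was -2.02 for Khdc3. From the early to the late 8-cell stage the difference was 4.22 for Rgs2, 2.91 for Nlrp4f, 2.70 for Kit, 2.01 for Nlrp5, 1.63 for Omt2a and 1.53 for Tle6. The late 8-cell libraries enter both sets of differences, which are therefore not independent of each other or of the late 8-cell comparison.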

How the results depend on the processing

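With 2 libraries per group and totals down to 3.20 M (M, mega), small changes of low members were not detectable, and a member without a call is not shown to be stable. Of 192 counts of members called, recomputed under the alternatives, 129 were within 1.5 times the count given above and 63 were beyond it. Of 463 values of single members, 319 kept their call, 143 lost it and 1 reversed, Bcl2l10 at the 4-cell stage, between -2.86 without 4-cell control replicate 1 and 0.36 without replicate 2 (adjusted p = 0.756). The cause of the changes below was not tested, except that a fit of fewer libraries has fewer degrees of freedom.

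No filter on low counts gave 16 members at the 4-cell stage, 13 at the early 8-cell stage, 12 for the control and 4 for the siRNA step from the 4-cell to the early 8-cell stage, 21 for the siRNA step from early to late 8-cell, 16 and 19 for the longer and shorter interaction, 21 and 20 for I1394G and NaCr against siRNA, and 8 and 5 for them against control. DESeq2 gave 5 at the early 8-cell stage, 2 for the control step from the 4-cell to the early 8-cell stage, 10 for the shorter interaction and 4 for NaCr against control. Limma on FPKM gave 1 at the 4-cell stage, 1 at the early 8-cell stage (3 without the column that did not match, a choice made after seeing the data) and 0 for NaCr against control. Of all late 8-cell calls 48.8% were higher, 58.4% with DESeq2 size factors and 75.0% with limma. Only the libraries compared gave 10 at the late 2-cell stage, 1 at the 4-cell stage, 4 for the siRNA step from early to late 8-cell, 20 and 1 for the interactions, 6 for I1394G against siRNA, and 7 and 7 for I1394G and NaCr against control.

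Leaving out 1 library at a time, with a lone library assumed to vary like the other groups, gave 0 to 0 members at the late 2-cell stage, 1 to 14 at the 4-cell, 3 to 5 at the early 8-cell and 7 to 9 at the late 8-cell stage. Stage steps gave 33 to 35, 0 to 9, 18 to 25 and, over the whole interval, 36 to 38 in controls, and 33 to 37, 0 to 1, 3 to 7 and 34 to 37 with siRNA. The interactions gave 5 to 9 and 0 to 8, I1394G and NaCr against siRNA 3 to 6 and 3 to 8, and against control 0 to 2 and 0 to 1.

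With a replicate block, which the main fit did not hold, 15 members were called at the late 8-cell stage (13 higher and 2 lower), 4 at the 4-cell and 4 at the early 8-cell stage.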
